A study of Rattus norvegicus with 2 samples.

Results

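Of 12498 entries in a small RNA table of rat hepatic stellate cells, 10658, or 85.3%, were predicted miRNA arms, with names made of a chromosome and a number. They were taken as every entry whose name starts with chr. A name such as chr8_25024_star gives the chromosome, the running number of the precursor and the arm, and a mouse or human miRNA name follows in some of them. The other entries carried rat names (723), mouse names (368) or human names (749).

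Stellate cells wrap the sinusoids of the liver and in culture become myofibroblasts that deposit collagen. Primary cells came from male Sprague-Dawley rats and were grown in medium with 20% fetal bovine serum, and small RNA was read on an Ion Proton instrument. The pressure group had 1 sample, loaded with 10 mmHg of nitrogen for 1 h after 14 days in culture and labelled activated pressure, and the control group had 1 sample, labelled control. The labels repeat the protocol of pressure loading for both samples and give no genotype, age or number of animals. The 2 columns of read counts are named by sequencing barcode, and neither could be tied to a sample, so the counts were not used. No depth, abundance, cell type check or difference between pressure and control is therefore given. What follows describes the catalogue of names and sequences, which has no replicates and no sampling error, and in which no test was made.

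A miRNA is cut from a hairpin in its precursor. Drosha releases the hairpin, Dicer removes the loop, and the arms leave as a short duplex with overhanging 3′ ends. An Argonaute protein keeps an arm, called mature here, and the partner, called star, is mostly degraded. The seed, bases 2 to 8 from the 5′ end, does most of the pairing with target mRNAs. Programs that predict miRNAs from reads look for a genomic stretch that could fold in this way with reads on an arm.

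Predicted precursors that match rat miRNA genes show what a complete member looks like. In 9 predicted precursors both arms lay on the same strand inside a RefSeq miRNA hairpin of the chromosome in their name, and in 2 more both lay on its opposite strand. These 11 stood on 8 hairpins, Mir155, Mir1b, Mir148a, Mir1247, Mirlet7g, Mir149, Mir676 and Mir450b-1. A selection, chosen after the values were seen, is printed. The RefSeq hairpins (GRCr8) are given as DNA, 5′ to 3′, with the predicted arms in capitals, and those marked opposite are the reverse complement of the RefSeq hairpin.
chr8_25024, Mirlet7g: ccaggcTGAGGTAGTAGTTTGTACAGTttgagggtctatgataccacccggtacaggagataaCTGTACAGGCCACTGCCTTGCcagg
chr11_32108, Mir155: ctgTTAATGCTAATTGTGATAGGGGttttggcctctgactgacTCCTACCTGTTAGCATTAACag
chr11_32811, Mir155 opposite: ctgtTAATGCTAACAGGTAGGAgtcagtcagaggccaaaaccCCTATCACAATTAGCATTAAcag
chr4_14786, Mir148a: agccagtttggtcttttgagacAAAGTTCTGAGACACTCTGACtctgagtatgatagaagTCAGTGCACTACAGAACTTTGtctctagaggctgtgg
chr4_13302, Mir148a opposite: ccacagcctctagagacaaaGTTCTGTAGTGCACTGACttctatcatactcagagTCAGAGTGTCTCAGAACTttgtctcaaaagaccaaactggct
chr9_27466, Mir149: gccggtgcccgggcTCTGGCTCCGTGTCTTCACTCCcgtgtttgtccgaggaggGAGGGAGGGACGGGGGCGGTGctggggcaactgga

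The let-7g hairpin lies at chr8:115701020-115701107 on the plus strand of GRCr8. The let-7 family restrains growth genes and marks differentiated cells. Its predicted mature arm and its predicted star arm were both 21 nt long. The miR-155 hairpin lies at chr11:37261114-37261178 on the plus strand, and miR-155 is best known from activated immune cells. On its own strand the mature arm had 22 nt and the star arm 20 nt. The opposite-strand precursor chr11_32811 covered the same hairpin from the minus strand, with a mature arm of 18 nt and a star arm of 20 nt. The miR-148a hairpin lies at chr4:81664431-81664527 on the minus strand, and miR-148a is abundant in liver and represses the DNA methyltransferase gene Dnmt1. It too had a precursor on each strand, and in both the 3p side of the gene was called mature. The miR-149 hairpin lies at chr9:100861800-100861888 on the plus strand.

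Several rat miRNAs without a rat-named entry were present in the table as predicted arms. RefSeq held 693 mature rat miRNA names, of which 645 were listed as rat entries. Of the other 48, 30 shared no stretch of 16 bases with any rat entry either. Predicted arms covered 10 of these 30 on the same strand, and in all 10 the chromosome in the predicted name was that of the gene. They were let-7g-3p, both arms of miR-1247, miR-148a and miR-155, miR-149-5p, miR-450b-3p and miR-676, on 12 predicted arms. For 4 of the 10, both arms of miR-148a and of miR-155, a predicted arm also lay on the opposite strand. The arm chr4_14786_mature matched all 21 bases of miR-148a-3p, and chr8_25024_star all 21 bases of let-7g-3p. The arm chr11_32108_mature matched 22 of the 23 bases of miR-155-5p. Names that share 16 bases with a rat entry were left out of the 30, also where a predicted arm covered them. Among those left out, let-7g-5p was matched over 21 of its 22 bases by chr8_25024_mature. Likewise, miR-450b-5p, of 21 nt, was matched whole by chrx_48177_star. A search of the table by rat name alone therefore misses these miRNAs.

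Most predicted arms did not have the length of a miRNA. A Dicer product has 20 to 24 nt as a rule. In that class fell 13.7% of predicted mature arms and 27.4% of predicted star arms, against 93.6% of rat named entries. Predicted mature arms ran from 17 to 24 nt, and 3446 of 5330, or 64.7%, had exactly 17 nt, the shortest length at which any was listed. Predicted star arms ran from 12 to 29 nt with a median of 18 nt, and 44.5% had 17 nt or fewer. Rat named entries had a median of 22 nt, and 1.11% had 17 nt or fewer. Lengths were thus piled up at the lower edge for the mature arm, while star arms spread on both sides of it. Of 5328 precursors with both arms listed, 1963 (36.8%) had both at 17 nt or fewer, 1473 (27.6%) had both longer, and 519 (9.74%) had both at 20 to 24 nt.

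**Figure D1:**
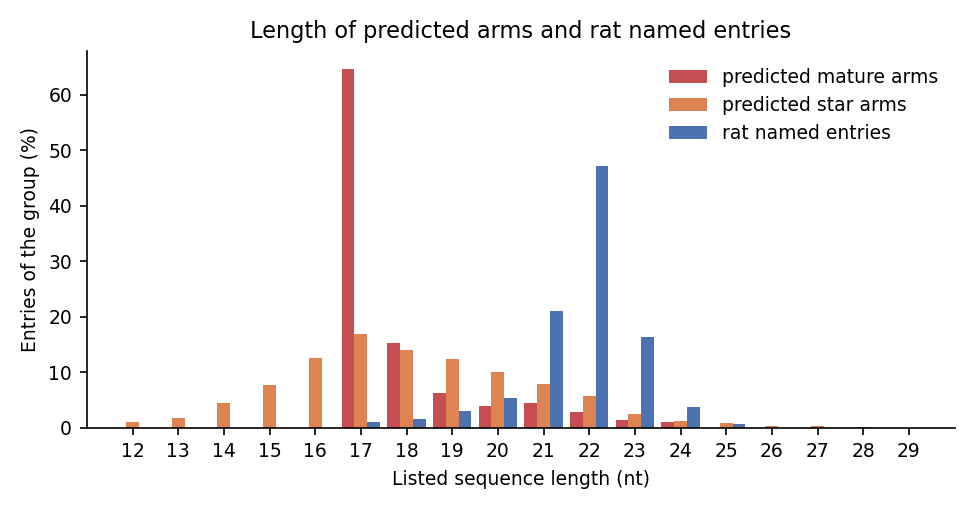
Share of entries (%) at each listed length in nucleotides, for predicted mature arms, predicted star arms and rat named entries. Mature arms peak at 17 nt with 64.7% of them, star arms spread from 12 to 29 nt, and rat named entries centre on 22 nt.

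Short arms were less frequent among those with a second name. The share at 17 nt or fewer among mature arms was 54.1% with a mouse second name, 63.2% with a human one and 66.9% with none. Among star arms it was 43.0% with a mouse name, 32.1% with a human name and 46.2% with none. The order of mouse and human names differed between mature and star arms.

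The first base also set predicted arms apart from named miRNAs. The pocket of Argonaute that holds the 5′ end favours U or A, written T or A in the table. Predicted mature arms began with G in 37.1%, with A in 29.5%, with T in 23.1% and with C in 10.3%. Rat named entries began with T in 36.4%, with A in 29.2%, with C in 21.99% and with G in 12.4%. Among predicted mature arms of 20 to 24 nt, T led with 35.1% and G made up 29.4%, so the share with T was near that of rat entries while the share with G stayed above it. Predicted star arms began with T in 29.96%, with C in 26.7%, with G in 24.5% and with A in 18.8%. The median GC content was 52.9% in predicted mature arms, 50% in predicted star arms and 47.8% in rat named entries.

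**Figure D2:**
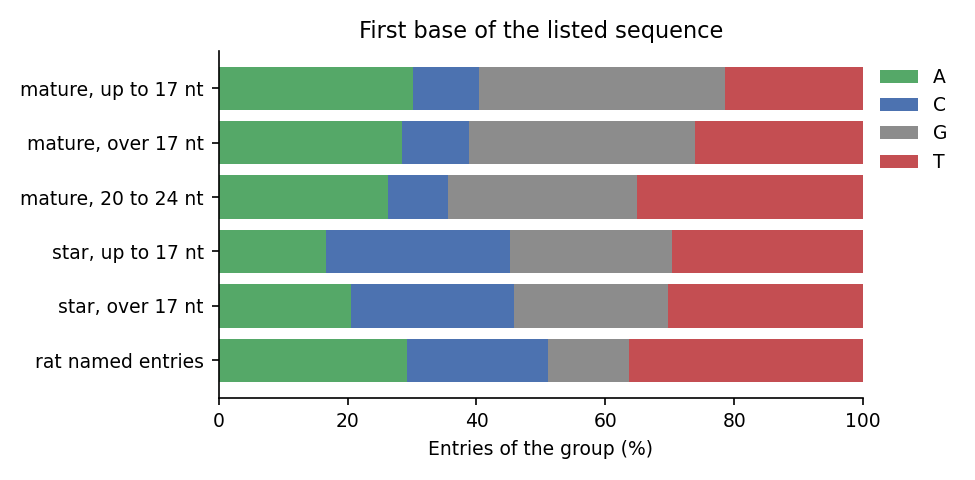
Share of entries (%) by the first base of the listed sequence, for predicted mature and star arms by length class and for rat named entries. G makes up 38.2% of predicted mature arms of up to 17 nt and 12.4% of rat named entries, and T reaches 35.1% in mature arms of 20 to 24 nt.

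Predicted arms carried 22 chromosome labels. Chromosome 1 had the most arms with 1230, followed by chromosome 2 with 812 and chromosome 10 with 782. The fewest were on the label M with 2, and on chromosomes 19 and 20 with 250 each. Set against the number of RefSeq promoters, which differs between chromosomes, the range was narrower, from 21.3 arms per 100 promoters on chromosome 19 to 42.7 on chromosome 7. Running numbers went from 3 to 48917, and the 5330 precursors used only part of that range.

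Many predicted arms were copies of each other. The 10658 arms held 9158 distinct sequences, and 1163 of these stood on more than 1 arm. In all 2663 arms, or 24.99%, shared their sequence with another predicted arm. Among mature arms 1935 (36.3%) had a copy on another mature arm, against 726 (13.6%) of star arms on another star arm. Of the repeated sequences 827 stayed on 1 chromosome, 336 stood on several, and 425 stood on precursors with consecutive numbers. Copies need not be separate loci. The mature arms of chr16_40789 and chr16_40790 were placed at the same position at Tmco3, with a star arm on either side of it. Reads of arms with the same sequence cannot be divided between them by sequence. The 3 most repeated sequences, none with a capital since no part is singled out, were these.
14 mature arms on 9 chromosomes, with the second name mmu-miR-3473e: gggctggagagatggct
10 mature arms on 4 chromosomes, with the second name hsa-miR-4758-5p: gacaggagccggtggcttag
9 mature arms on 4 chromosomes, with no second name: gggtttgctgaagaaac

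The most repeated of them, of 17 nt, also stood near gene starts, and how often it occurs elsewhere in the genome was not examined. It occurred in 82 of 33469 RefSeq promoter windows of 300 bases, or 0.245%, counting both strands. The other two, of 20 and 17 nt, occurred in 0 of these windows. Among predicted arms of at least 17 nt, 39 occurred in 10 or more windows. The most frequent of these, chr10_29934_mature, stood on 1 predicted arm and occurred in 171 windows (0.511%). It was chosen after its count was seen and is shown because, among sequences of at least 17 nt, it has the widest spread over promoters.
chr10_29934_mature: ggggatttagctcagtggtaga

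A second name was attached to 2448 predicted arms (22.97%), 1319 of mouse and 1129 of human. Mature arms carried one more often than star arms, in 26.0% against 20.0%. The arms shared 1230 distinct second names, of which 670 stood on 1 arm and 84 on 5 or more. The most used were mmu-miR-3473e on 32 arms with 15 sequences and mmu-miR-5106 on 30 arms with 17 sequences. The name hsa-miR-4758-5p stood on 10 arms, all of 1 sequence, while mmu-miR-709 stood on 10 arms with 10 sequences.

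A second name seldom meant that the arm had the sequence of that miRNA. A sequence of the named miRNA could be found for 1461 of the arms, from an entry of that name for 1051, from the rat entry of the same number for 372 and from RefSeq for 38. The longest stretch shared by arm and miRNA, on whichever strand gave the longer one, was exactly 11 bases in 798 arms (54.6%). It was under 11 bases in 168 (11.5%), 12 to 15 in 410 (28.1%), and 16 or more in 85 (5.82%). Among the 1051 arms compared with an entry of the same name, it was under 11 bases in 72 (6.85%) and exactly 11 in 623 (59.3%). A short stretch does not exclude a match to the rat miRNA of that number. The arm chrx_47821_mature shared 10 bases with the sequence used for its second name miR-676-3p, but 20 with RefSeq rat miR-676. How many other arms this concerns was not tested. The longer stretch lay on the same strand in 882 arms (60.4%) and on the opposite strand in 573 (39.2%), with 6 ties. An opposite-strand stretch means that the arm is complementary to the miRNA whose name it carries over that stretch only. It was exactly 11 bases in 323 of the 573 arms and 16 or more in 23. The seed was the same in 104 arms, or 7.12%. It was the same in 41 of the 62 arms (66.1%) whose stretch was 16 or more bases on the same strand. Typical matches of 11 bases are shown with the shared stretch in capitals in the arm and in the rat miRNA, on the same strand in the first 2 pairs and as complements in the last 2. They were chosen after their values were seen.
chr10_30843_star@@mmu-miR-377-3p: caatctgaagcCACACAAAGGC
rno-miR-377-3p: tgaatCACACAAAGGCaactttt
chr12_33484_mature@@mmu-miR-19b-2-5p: ataaGCAGATTTGCAacgggg
rno-miR-19b-2-5p: agttttGCAGATTTGCAgttcag
chr10_31190_mature@@mmu-miR-493-3p: gagcatccaGCACACAGTAG
rno-miR-493-3p: tgaaggtCTACTGTGTGCcag
chr11_33359_star@@mmu-miR-181d-3p: ctACATTCATCCCtctctag
rno-miR-181d-3p: ccaccggGGGATGAATGTca

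In these pairs the seed of the arm and that of the miRNA differ. At the long end, chr11_32107_mature shared 22 bases with miR-155-5p and chr9_27466_mature 22 bases with miR-149-5p. Both arms of chr4_14786 shared 21 bases with the arms of miR-148a, and chr8_25024_mature shared 21 bases with let-7g-5p. At the short end, chr10_29727_mature, named after hsa-miR-483-5p, and chr10_30839_mature, named after mmu-miR-133c, shared at most 4 bases with the sequence found under that number, as did chr17_42279_mature with miR-743a-3p. Arms of precursors with both arms at 17 nt or fewer, 1 of which shared 3 bases, were not considered here. For these 3 the sequence came from the rat entry or RefSeq miRNA of the same number, not from an entry of the mouse or human name.

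**Figure D3:**
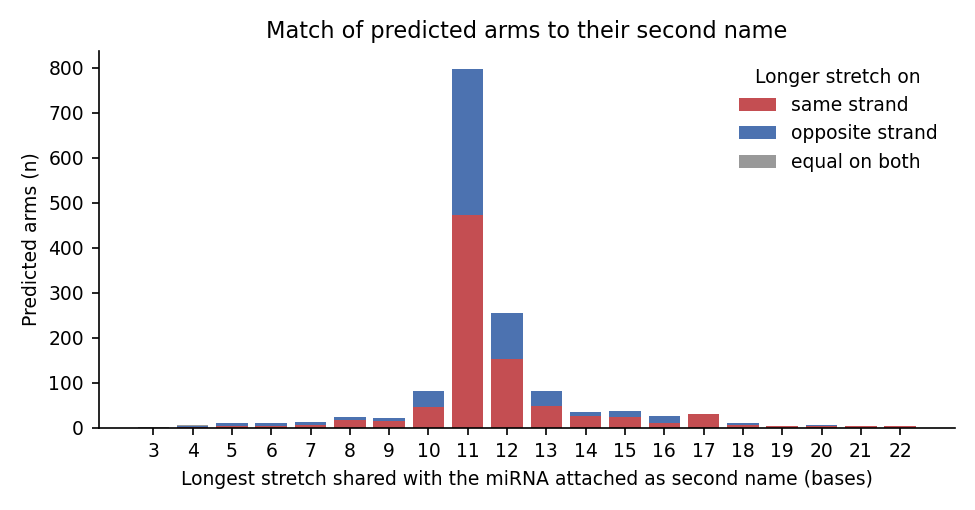
Number of predicted arms by the longest stretch, in bases, shared with the miRNA attached as second name, coloured by the strand of the longer stretch. The bar at 11 bases holds 798 of 1461 arms, and 85 arms lie at 16 bases or more.

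Precursors whose arms both carried a second name mostly named different miRNAs. Of 331 such precursors, 14 (4.23%) named the same miRNA on both arms. These were miR-744, miR-466m, miR-449b, miR-1955, miR-4799, miR-1247, let-7b, let-7g, miR-149 and miR-676 once each, and miR-155 and miR-148a on 2 precursors each. In 3 of the 14, 1 each for miR-155, miR-148a and let-7b, the arms matched the opposite strand of the miRNA. Names were compared as written, without species and without the ending -3p or -5p. The names miR-450a-2-3p and miR-450a-5p, on the arms of chrx_48177 and of chrx_48191, therefore counted as different.

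Names of a mouse repeat-rich miRNA family gathered on 1 chromosome. The mouse miRNAs miR-466, miR-467, miR-669, miR-297 and miR-1187 include a large cluster in an intron of Sfmbt2, a Polycomb gene. Of 131 predicted arms with such a second name, 59 (45.0%) were on chromosome 17, which held 452 of the 10658 arms. Of these 59, 56 had running numbers between 43020 and 43112, on 30 precursors, and held 27 distinct sequences. This family was picked after the names were seen. Apart from the label M, chromosome 17 had the highest share of arms with a second name, 32.5%. The 59 arms are among the 147 that make up this share.

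Stretches shared with listed rat miRNAs were few and mostly on another chromosome than the gene. On the same strand 46 predicted arms, 44 mature and 2 star, had a stretch of 16 or more bases in common with a rat miRNA. In 5 of the 46 (10.9%) the chromosome in the name was that of a RefSeq gene for the entry. Of the 46, 16 carried the same repeated stretch of miR-3473, none of them on the chromosome of its gene, and among the other 30 the share was 16.7%. Another 2 arms, of chr3_12684 and chr8_25024, lay in a RefSeq hairpin of their own chromosome, but were compared here with the listed entries miR-1-3p and let-7i-5p. The 5 arms carried stretches of miR-466b on chromosome 17 and of miR-450a-5p on the X chromosome. Those with the miR-450a-5p stretch, the star arms of chrx_48177 and chrx_48191, lay in the RefSeq hairpin Mir450b-1. They had the whole sequence of its miR-450b-5p, of 21 nt, and miR-450a-5p was the closest listed rat entry. With identical arms taken once and ties broken by name, the 5 longest stretches are shown with the shared bases in capitals. The miR-450a-5p stretch stood on another arm of the same sequence.
chr10_31327_mature@@mmu-miR-378c: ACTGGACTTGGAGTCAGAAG
rno-miR-378a-3p: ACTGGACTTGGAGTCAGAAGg
chrx_48177_star@@mmu-miR-450a-5p: TTTTGCGATGTGTTCCTAATa
rno-miR-450a-5p: TTTTGCGATGTGTTCCTAATgt
chr17_43037_mature@@mmu-miR-466m-3p: ctTATACATACACACATACAC
rno-miR-466b-2-3p: aTATACATACACACATACACa
chrx_47747_mature@@mmu-miR-338-3p: TCCAGCATCAGTGATTTTG
rno-miR-338-3p: TCCAGCATCAGTGATTTTGttga
chr17_43035_mature@@mmu-miR-466m-3p: TACATACACACATACACAcac
rno-miR-466b-2-3p: ataTACATACACACATACACA

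The arm with the miR-378a-3p stretch, a miRNA hosted by the metabolic coactivator gene Ppargc1b, was named for chromosome 10, while the RefSeq gene is on chromosome 18. The arm with the miR-338-3p stretch was named for the X chromosome, with the gene on chromosome 10. The hepatocyte miRNA miR-122-5p gave a stretch of 17 bases on chr2_9058_mature, and its gene is on chromosome 18. Another 17 bases, of miR-23a-3p, stood on chr2_6895_mature, with the gene on chromosome 19. The last 2 arms were chosen after their values were seen. Reads of these 4 miRNAs could be matched to a predicted arm as well as to the rat entry, and how such reads were counted was not given in the sources used here.

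Seeds of rat miRNAs were found on 657 predicted arms, or 6.16%. The 605 distinct rat seeds are 3.69% of the 16384 possible words of 7 bases. The share was 7.04% in mature arms and 5.29% in star arms, and it was 8.54% in arms with a second name and 5.46% in arms without. It was 7.39% among arms of 20 to 24 nt. Arms with a second name include some named for the miRNA whose seed they carry, such as chr13_35592_mature with miR-27a-3p. The share in arms with a second name is therefore not independent of the naming. The most frequent was the let-7 seed GAGGTAG, on 19 predicted arms with 16 sequences. The miR-24-3p seed GGCTCAG stood on 11 arms with 6 sequences. The miR-27 seed TCACAGT stood on 10 arms with 7 sequences, and the miR-466b-2-3p seed TATACAT on 10 arms with 5 sequences. These seeds are those with the highest counts and were chosen after the counts were seen.

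The arms of a predicted precursor paired less strongly than those of a rat miRNA. Pairing was taken as the lowest free energy of the duplex of both arms, where a more negative value means stronger pairing. The median was -11.1 kcal/mol in 5327 predicted precursors and -21.5 kcal/mol in 314 rat named precursors with both arms listed. The median number of paired bases was 11 in predicted and 17 in rat named precursors. A shorter duplex has room for fewer pairs, so length classes were also compared. With both arms at 20 to 24 nt the medians were -16.6 kcal/mol in 519 predicted and -21.8 kcal/mol in 283 rat named precursors. With both arms at 17 nt or fewer the predicted median was -10.2 kcal/mol. At or below the rat median lay 242 predicted precursors (4.54%), and in the class of 20 to 24 nt 122 of 519 (23.5%) lay at or below the rat median of that class. At the weak end, 83.9% of predicted precursors lay at or above -16.39 kcal/mol, where the weakest 10% of rat named precursors began.

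**Figure D4:**
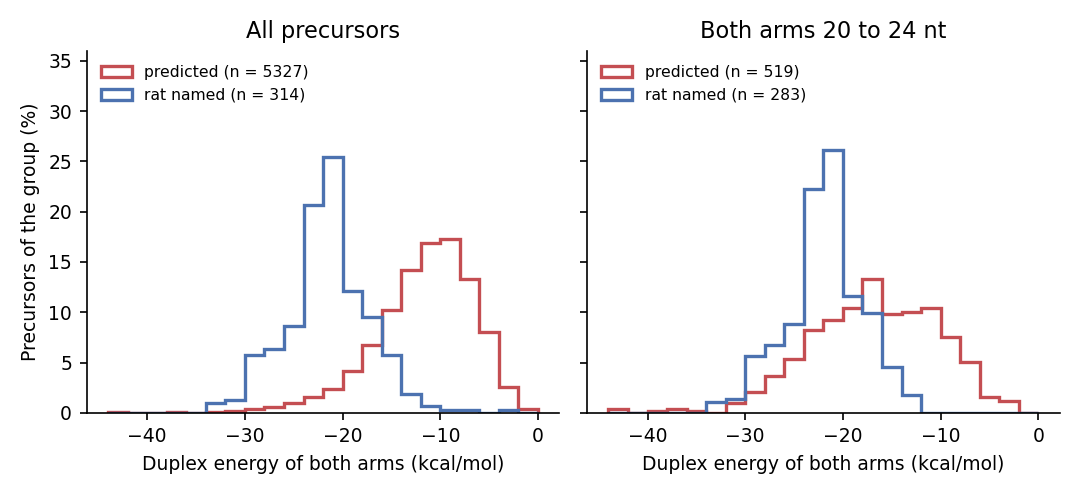
Share of precursors (%) by the duplex energy of both arms in kcal/mol, in steps of 2, for predicted and rat named precursors, left for all and right for those with both arms at 20 to 24 nt. Predicted precursors centre on -11.1 kcal/mol and rat named ones on -21.5 kcal/mol, and the distributions overlap more at 20 to 24 nt.

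The 9 predicted precursors that matched a RefSeq hairpin on its own strand had a median of -22.7 kcal/mol. They ran from -25.8 kcal/mol for miR-149 and -25.7 for let-7g, through -23.2 for both miR-450b-1 precursors, -22.7 for Mir1b, -19.7 for miR-676, -16.7 for miR-1247 and -16.6 for miR-155, to -14.6 for miR-148a. The opposite-strand precursors of miR-155 and miR-148a had -16.1 and -14.8 kcal/mol. The 14 precursors with the same miRNA on both arms had a median of -18.2 kcal/mol. Of the 9, that of miR-148a alone lay on the weak side of the -16.39 kcal/mol boundary. Among precursors with at least 1 arm over 17 nt, and with copies of a pair of sequences taken once, the 5 lowest and the 3 highest energies belonged to those printed here. Each has its mature and star arm in lower case, as no part is singled out.
chr5_16031 mature: tagggagcttcgggctgacag
chr5_16031 star: tgtcagcccgaagctccctaa
chr5_17532 mature: ttagggagcttcgggctgacag
chr5_17532 star: tgtcagcccgaagctccctatg
chr10_30341 mature: tgctggtaggggatgggtgat
chr10_30341 star: tcacccatcctctaccagcct
chr12_34475 mature: tccccagcgcgaagggtggcg
chr12_34475 star: gccacctttcgcgttgtggat
chr10_31121 mature: ggtctggcctggtgggccctg
chr10_31121 star: cgggcctcactgggcctggccc
chr6_20748 mature: acagaaaggaaacagac
chr6_20748 star: tttatttttattatgatc
chr8_24144 mature: atatgcataaatgaagt
chr8_24144 star: tgttatattatattatata
chr8_24741 mature: acagagagaaatagact
chr8_24741 star: ggacgattatcaggctagtt

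The precursors chr5_16031 and chr5_17532 both had -43.1 kcal/mol with 20 paired bases, and the mature arm of chr5_17532 holds that of chr5_16031 whole. The precursor chr10_30341 had -39.1, chr12_34475 -36.5 and chr10_31121 -36.0 kcal/mol, and all 5 had arms of 21 or 22 nt. At the other end chr6_20748 had -0.5, chr8_24144 -1.0 and chr8_24741 -1.1 kcal/mol, with mature arms of 17 nt. In the class with both arms at 17 nt or fewer, not considered for printing, 2 precursors lay in this range, the weaker at -0.7 kcal/mol. The pair of chr12_34475 stood on a second precursor as well, with the same energy. The strongest 5 thus have the arm lengths of Dicer products, and none had both arms in a RefSeq miRNA hairpin.

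A share of predicted arms had a sequence that occurred at gene starts. Of 9185 arms of at least 17 nt, 588 (6.40%) occurred in a RefSeq promoter window, which reaches from 250 bases before a gene start to 50 after it. Of 498 that occurred at a single promoter position, 356 (71.5%) were on the chromosome in their name, where the chromosome shares of arms and promoters alone would give 5.73%. For arms of 17 nt it was 64.7%, and for arms of 18 nt or longer 81.3%. The 356 arms belonged to 240 precursors at 210 genes, and in 172 of the 240 (71.7%) both arms lay in the window. For this count a partner arm was sought from 14 nt on. In these 172 the loop between the arms had a median of 23 nt (2 to 51 nt) and the whole span a median of 58.5 nt (34 to 91 nt). The mature arm was at the 5′ side in 81 of 172 (47.1%). The median GC content was 58.8% in the placed arms and 50% in all arms of at least 17 nt. The 172 precursors with both arms in the window had a median duplex energy of -12.3 kcal/mol. Copies of a sequence were placed at the same position and counted each, as with chr3_10790 and chr3_12373 at Romo1. The counts, shares and medians given here therefore include some positions more than once.

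The strand of the placed arms changed with distance from the gene start. Of 183 arms centred more than 100 nt before the start, at 118 genes, 140 (76.5%) lay on the strand opposite to the gene. Of 104 arms centred within 100 nt before the start, at 77 genes, 36 (34.6%) did. Of 69 arms centred after the start, at 54 genes, 7 (10.1%) did. Many mammalian promoters are transcribed in both directions, with the opposite-strand RNA starting before the gene. Over all, 119 of the 240 precursors (49.6%) lay on the strand of the gene, which hides this order. The boundary of 100 nt was chosen after the positions were seen, and arms of the same precursor are not independent. Nor are copies of a sequence, which were counted each at the same position. Each arm was assigned to a single gene, also where windows of neighbouring genes may overlap. An arm opposite to its assigned gene could therefore lie on the strand of a neighbouring gene and nearer to that start. How many arms this concerns was not tested.

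**Figure D5:**
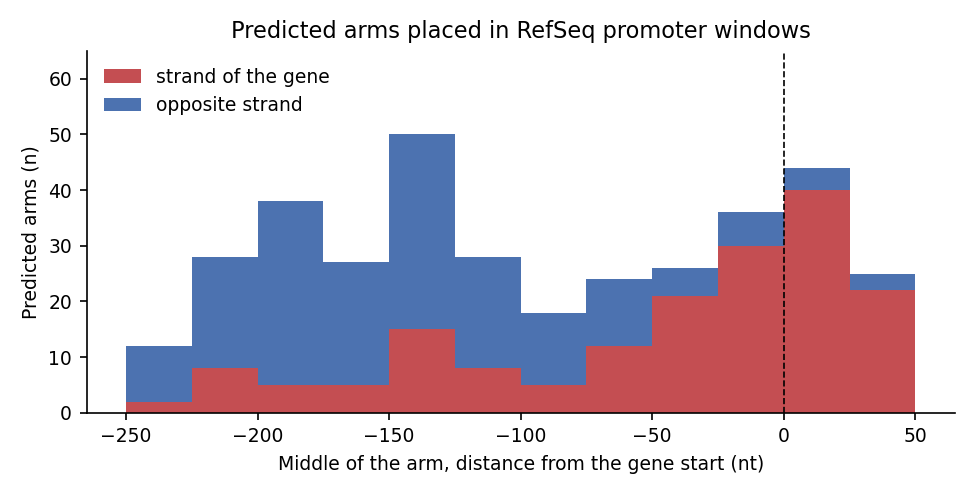
Number of the 356 placed predicted arms by the distance of their middle from the gene start in nt, negative before the start. Stacked colours give the strand relative to the gene assigned to each arm. Opposite-strand arms make up 76.5% of those more than 100 nt before the start and 10.1% of those after it.

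Examples at 5 genes, wholly before the gene start, are given as the GRCr8 genome sequence of the precursor strand from RefSeq promoter windows, with the predicted arms in capitals. They are shown because both arms and the loop can be read from a reference. They have the lowest duplex energies among precursors at genes with a full symbol, with separate arms and with an arm over 17 nt, and were chosen after their values were seen.
chr12_33911 at Kmt5a, chr12:37818163-37818217, plus strand: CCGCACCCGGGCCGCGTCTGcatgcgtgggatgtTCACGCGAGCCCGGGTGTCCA
chr6_18983 at Tmem214, chr6:31230400-31230463, plus strand: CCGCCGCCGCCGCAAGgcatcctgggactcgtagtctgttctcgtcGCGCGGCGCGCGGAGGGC
chr5_18530 at Pla2g2f, chr5:156276473-156276523, minus strand: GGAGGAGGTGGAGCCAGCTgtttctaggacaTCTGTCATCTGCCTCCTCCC
chr6_20045 at Prkce, chr6:14204298-14204343, plus strand: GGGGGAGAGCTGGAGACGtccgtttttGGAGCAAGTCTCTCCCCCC
chr4_13067 at Tnpo3, chr4:59185731-59185800, plus strand: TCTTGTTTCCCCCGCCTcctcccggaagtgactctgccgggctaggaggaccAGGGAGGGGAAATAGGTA

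Kmt5a, a histone methyltransferase, Tmem214, a membrane protein of the endoplasmic reticulum, Prkce, a protein kinase C, and Tnpo3, a nuclear import receptor, are on the minus strand, so these precursors ran against the gene. Pla2g2f, a secreted phospholipase, is also on the minus strand, and its precursor ran with the gene. The duplex energy was -31.8 kcal/mol at Kmt5a, -25.6 at Tmem214, -24.8 at Pla2g2f, -21.2 at Prkce and -21.1 at Tnpo3. At Kmt5a the loop had 14 nt and the near edge of the span lay 136 nt before the gene start. The arms at Prkce had 18 and 19 nt around a loop of 9 nt.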

How the data were processed

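Small RNA of 1 pressure sample and 1 control sample of rat hepatic stellate cells was sequenced, per the labels. Of tools, FastQC alone appears in the submitters' processing notes. The aligner, the counter, the program that predicted arms, the miRNA database, the genome build and the use of strand were not given in the sources used here. Deposited by the authors was 1 table with names, sequences and read counts. The 2 count columns are named by barcode, matched no label and were used in no step, so planned results on detection, abundance and the ratio of mature to star were not run. The names and sequences, other values in the deposited table, belong to no sample. In the copy used here 5 lines were blank and were not analysed here.

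Members and lists were chosen with earlier results of these data known. Named examples were the most repeated sequences, the extremes of duplex energy, of shared stretches and of arms per chromosome, with copies taken once and ties broken by name, leaving out precursors with both arms at 17 nt or fewer. Others are marked where they appear. Lengths, shared stretches (at least 16 bases), seeds, exact matches to RefSeq hairpins and promoter windows (GRCr8, both strands, arms of at least 17 nt, both arms within 150 nt) were computed with Python 3.11.15 and pandas 2.3.3. In promoter windows the partner of a placed arm was sought from 14 nt on. Duplex energies came from RNAduplex of ViennaRNA 2.7.2 at its default settings, for precursors with both arms listed and no undetermined base. Figures were drawn with matplotlib 3.10.9. The matching steps were tested on simulated data. No whole genome sequence was used here, so arms outside hairpins and promoter windows were not placed. The build behind the predicted names is not given, and GRCr8 coordinates come from matching the sequences.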

Additional observations from a re-analysis of the deposited data

How the results depend on the processing

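No paired analysis was possible because the pressure and control groups have 1 sample each and the count columns matched no sample. Alternatives on detection and on the ratio of mature to star at 10 reads were not run. The share of predicted arms of up to 17 nt, 54.6%, was 13.8% at a boundary of 16 nt and 69.2% at 18 nt. Arms with a same-strand stretch in common with any named entry, 66 for 16 bases or more, numbered 136 at 14, 18 at 18 and 6 at 20. The share with a rat seed, 6.16% for bases 2 to 8, was 18.1% for bases 2 to 7, where rat seeds are 13.4% of possible words, and 2.36% for bases 1 to 8, where they are 0.963%. The share of second-named arms with the seed of that miRNA, 7.12%, was 17.2% when the seed could lie anywhere in the arm. Precursors at or below the rat median energy, 4.54%, made up 12.02% of those with both arms longer than 17 nt. Counting each distinct sequence or pair once gave 54.0% for length, 6.02% for seeds and 4.24% for duplex energy. The alternatives that follow were chosen after seeing the data. Placed arms on the chromosome of their name, 71.5%, made up 81.3% of arms of 18 nt or longer. Restricting second names to those with an entry of their own gave 6.85% with a longest stretch under 11 bases, against 11.5%, and 5.99% with the same seed and 38.0% with the longer stretch on the opposite strand. Values moved with the boundary because each boundary admits a different set of arms.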

Other observations

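Running numbers of predicted precursors followed strand and position within a chromosome. Among placed precursors on opposite strands of the same chromosome, the plus-strand one had the lower number in 712 of 801 couples (88.9%). On the same strand, number and GRCr8 position ran in the same direction in 763 of 903 couples (84.5%). A couple placed at the same position has no order and was counted as running in the same direction. Couples share precursors, so this is a description. The consecutive numbers on 425 repeated sequences can be read with it.

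An arm complementary over at least 16 bases to an arm of another precursor of the same chromosome was found for 12 of 5330 precursors (0.225%). The opposite-strand precursors at the miR-155 and miR-148a hairpins belong to this small class.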
